A study of Drosophila melanogaster with 3 samples.

Results

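Of the reproducible Lhr-eGFP peaks, those that passed a threshold on the irreproducible discovery rate, in Drosophila melanogaster embryos, 1565 (30.2%) had their summit at the promoter of a head-to-head gene pair. A peak was taken when its summit, the position of highest signal, lay within 500 bp of a start site of a protein-coding gene whose upstream neighbour on the opposite strand, of any gene type, started at most 1000 bp away. Every annotated transcript start counted, and summits in pericentric sequence were left out. In the strongest peaks of replicates 1, 2 and 3 the share was 27.0%, 32.9% and 30.1% (30.0% ± 2.91, SD, n = 3). The rest of the reproducible list were 1533 summits at promoters without such a partner, 1854 summits away from protein-coding promoters and 238 pericentric summits. The 1565 summits fell at 1410 distinct pairs with 2699 protein-coding genes. The partner was protein-coding for 1452 summits, a noncoding RNA gene for 98, a tRNA gene for 7, a pseudogene for 7 and a snoRNA gene for 1.

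The data are chromatin immunoprecipitation sequencing (ChIP-seq) peak lists from a transgenic line that stably expresses the Lhr protein with eGFP at its C terminus. What drives the transgene, and whether untagged Lhr is also present, is not stated in the labels. Whole embryos of mixed sex, aged 0 to 14 h, were the material of all 3 libraries, biological replicates 1, 2 and 3, which form a single group. Chromatin was sonicated to 200 to 800 bp and recovered with an antibody against GFP. There is no second genotype, age or treatment, and a whole embryo mixes all cell types. The control named in the labels was not analysed here. The lists hold no read counts, so depth is unknown and no counting interval is given. All libraries were called against 1 shared control alignment, and its part in their agreement was not tested. Each library entered through its peaks of highest signal, as many as the reproducible list holds. The library is the replicate, since peaks and genes of 1 library are not independent.

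Lhr (Lethal hybrid rescue) is a chromatin protein that acts with Hmr (Hybrid male rescue) and binds heterochromatin protein 1. Loss of Lhr in Drosophila simulans or of Hmr in Drosophila melanogaster rescues hybrid males of the cross between these species. Head-to-head, or divergent, genes are transcribed away from each other from a shared stretch of DNA, an arrangement that is common in the compact fly genome. Housekeeping promoters of flies often carry short elements such as the motif 1 site bound by M1BP, the DRE bound by DREF, the CGATA word of the boundary protein BEAF-32, and the core promoter motifs 6 and 7, whereas TATA boxes and GAGA sites are typical of regulated genes.

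The sequences at the strongest divergent promoter summits show how unlike these elements are from pair to pair. The first 8 windows below are in order of signal, with the pair of mRpL41 and CG8079, which is stronger than that of tzn, not shown because no sequence of its chromosome arm is printed here, and the last, at grsm and Spc25, was chosen after its values were seen because it holds a DRE. Each is the Release 6 (dm6) plus strand from 5′ to 3′, with the summit in the centre and 100 bases to each side. Capitals mark exact matches on either strand to the M1BP word GGTCACACT, the DRE TATCGATA, the BEAF-32 word CGATA (which lies inside the DRE), motif 6 (GTATNTTT), motif 7 (CATCNCTA) and the E-box CAGCTG. An AGTGTGACC is the M1BP word, and a TATCG the BEAF-32 word, read on the minus strand.
Ugalt and eIF2Bbeta (chrX:2703796-2703996): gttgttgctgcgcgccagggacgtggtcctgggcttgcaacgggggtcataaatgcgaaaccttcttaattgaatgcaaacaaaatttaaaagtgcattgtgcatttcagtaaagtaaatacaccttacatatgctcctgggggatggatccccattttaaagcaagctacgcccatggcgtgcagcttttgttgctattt
Chro and Ssl1 (chr3L:22878808-22879008): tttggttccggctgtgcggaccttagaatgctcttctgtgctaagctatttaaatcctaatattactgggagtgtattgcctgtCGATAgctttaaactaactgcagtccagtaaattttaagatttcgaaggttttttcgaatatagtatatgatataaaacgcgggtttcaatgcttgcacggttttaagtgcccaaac
BTBD9 and Atg8a (chrX:10768339-10768539): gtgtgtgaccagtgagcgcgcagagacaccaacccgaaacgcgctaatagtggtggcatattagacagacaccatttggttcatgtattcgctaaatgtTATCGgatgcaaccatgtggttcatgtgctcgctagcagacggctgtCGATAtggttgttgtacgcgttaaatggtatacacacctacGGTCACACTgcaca
CG3918 and CG42340 (chrX:6524314-6524514): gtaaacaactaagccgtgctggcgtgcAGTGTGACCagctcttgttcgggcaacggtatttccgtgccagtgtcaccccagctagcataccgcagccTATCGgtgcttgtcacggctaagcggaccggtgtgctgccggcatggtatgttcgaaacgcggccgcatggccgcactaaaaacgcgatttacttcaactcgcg
Art3 and mRpS10 (chr3R:15229425-15229625): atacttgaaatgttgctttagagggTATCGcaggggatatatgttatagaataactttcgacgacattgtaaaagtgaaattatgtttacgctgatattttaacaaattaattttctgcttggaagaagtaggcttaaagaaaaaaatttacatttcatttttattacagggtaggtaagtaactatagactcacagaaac
T48 and ro (chr3R:26881461-26881661): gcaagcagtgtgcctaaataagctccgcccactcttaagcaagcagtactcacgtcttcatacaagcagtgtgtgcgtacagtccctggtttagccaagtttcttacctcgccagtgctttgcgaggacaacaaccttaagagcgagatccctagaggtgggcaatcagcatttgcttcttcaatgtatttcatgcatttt
Vha55 and Snx3 (chr3R:12627778-12627978): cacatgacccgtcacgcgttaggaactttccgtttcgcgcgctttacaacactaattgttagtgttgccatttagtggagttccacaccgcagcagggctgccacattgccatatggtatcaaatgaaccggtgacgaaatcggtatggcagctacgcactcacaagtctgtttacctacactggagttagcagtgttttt
tzn and CG3698 (chr3L:20798498-20798698): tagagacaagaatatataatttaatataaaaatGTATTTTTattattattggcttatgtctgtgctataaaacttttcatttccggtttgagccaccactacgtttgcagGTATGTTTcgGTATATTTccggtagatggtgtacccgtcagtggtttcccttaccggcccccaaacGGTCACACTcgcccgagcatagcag
grsm and Spc25 (chr3R:12961593-12961793): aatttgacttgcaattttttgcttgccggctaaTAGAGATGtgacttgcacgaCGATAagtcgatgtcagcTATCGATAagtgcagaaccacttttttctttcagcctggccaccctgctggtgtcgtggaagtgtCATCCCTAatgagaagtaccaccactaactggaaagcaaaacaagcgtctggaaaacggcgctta

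The windows at BTBD9, CG3918 and tzn carry the M1BP word, and the window at tzn adds motif 6 at 3 places. Those at Chro and Art3 have the BEAF-32 word and none of the other marked elements. Those at Ugalt, T48 and Vha55 have none of them. The window at grsm and Spc25 has the DRE together with motif 7 at 2 places. A match is a description of the letters, and its absence says nothing about a factor.

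The strongest divergent promoter summit lay 44 bp from the start of Ugalt, a transporter of UDP-galactose, in the 719 bp between it and eIF2Bbeta, a subunit of a translation initiation factor. Its combined signal of 2394.3 ranked 11 among all peaks, and it ranked 10, 28 and 10 in replicates 1, 2 and 3. The signal is the authors' enrichment value and has a scale of its own in each list, so ranks are set side by side. The second, at rank 19, was at Chro, the chromodomain protein of polytene interbands, whose partner Ssl1 is a subunit of the transcription factor TFIIH (ranks 14, 39 and 19 in the libraries). This summit lay 76 bp inside Chro from its nearest start, and not between that start and Ssl1, which are 105 bp apart. Another annotated start of Chro is 321 bp from Ssl1. From that one the summit lay 140 bp upstream, between the starts. The 199 bp between BTBD9 and Atg8a, a ubiquitin-like protein of autophagosomes, held the summit of rank 20 (ranks 23, 16 and 24), and it lay 98 bp from BTBD9 and slightly farther from Atg8a. CG3918 and CG42340 followed at rank 22, and the arginine methyltransferase gene Art3 with mRpS10, a protein of the mitochondrial ribosome, at rank 26.

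The next in strength joined genes of unlike function. T48, which acts in apical constriction at gastrulation, and ro, a homeodomain factor of the eye, start 563 bp apart and shared the summit of rank 33. Vha55, a subunit of the vacuolar proton pump, and the sorting nexin gene Snx3 shared that of rank 35. The others of the 12 strongest were at mRpL41 and CG8079 (rank 36), tzn and CG3698 (rank 42), the tRNA modification gene Tcs5 and CHMP2B of the ESCRT-III complex (rank 49), the tetraspanin genes Tsp42Ee and Tsp42Ed (rank 50), and Socs36E, an inhibitor of JAK/STAT signalling, with CG17681 (rank 52). All 12 were among the strongest peaks of all 3 libraries, with library ranks from 10 to 103, and 11 of them lay between the paired starts assigned to them.

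How often a divergent promoter carried Lhr-eGFP was asked next. Genes with a divergent partner were bound about 3 times as often as genes without one, and in every library. Of 5470 protein-coding genes with a divergent partner, 2626 (48.0%) had a summit within 500 bp of the paired start, against 28.6% of all 13721 protein-coding genes outside pericentric sequence. Of the 8251 genes without a partner, 1302 (15.8%) had a summit. The share with a partner was 42.7%, 51.5% and 47.9% in replicates 1, 2 and 3, and the share without was 14.7%, 16.9% and 15.5%. The groups did not overlap, and the difference was 31.7 ± 3.37 percentage points (SD, n = 3 libraries). An exact two-sided sign-flip permutation test over the 3 libraries gave p = 0.25, the smallest p that 3 libraries allow, so no comparison here can pass the usual threshold. Both genes of a pair can be bound through the same summit, so the genes of a pair are not independent. A gene with a partner can also count as bound through a summit near its partner's start. Genes without a partner offer no such start, so the comparison is not like for like.

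Counted by pair, 1510 of 3120 divergent pairs (48.4%) had a summit within 500 bp of either of its closest paired starts, with 43.2%, 52.1% and 48.3% in the libraries (47.9% ± 4.44, SD, n = 3). A summit can count for several such pairs, whereas the 1410 pairs above come from assigning each summit to 1 pair. Pairs of intermediate spacing most often had a summit. The share was 41.7% of the 484 pairs with starts up to 100 bp apart and 43.4% of the 447 pairs with gaps of over 100 to 200 bp. It was 57.1% of the 617 pairs with gaps of over 200 to 300 bp and 55.9% of the 739 pairs with gaps of over 300 to 500 bp, and then 41.9% of the 833 pairs with gaps of over 500 to 1000 bp. The library means were 41.7% ± 6.30, 41.8% ± 3.44, 57.7% ± 5.92, 54.6% ± 5.35 and 41.5% ± 2.11 (SD, n = 3) in the same order. In each library both middle classes, in gaps of over 200 to 500 bp, lay above the other 3 classes. A wider gap offers more positions at which a summit counts. Per kb of gap, summits inside it numbered 3.00, 2.20, 2.10, 1.56 and 0.596 from the narrowest to the widest class, a fall with no peak at intermediate spacing.

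**Figure D1:**
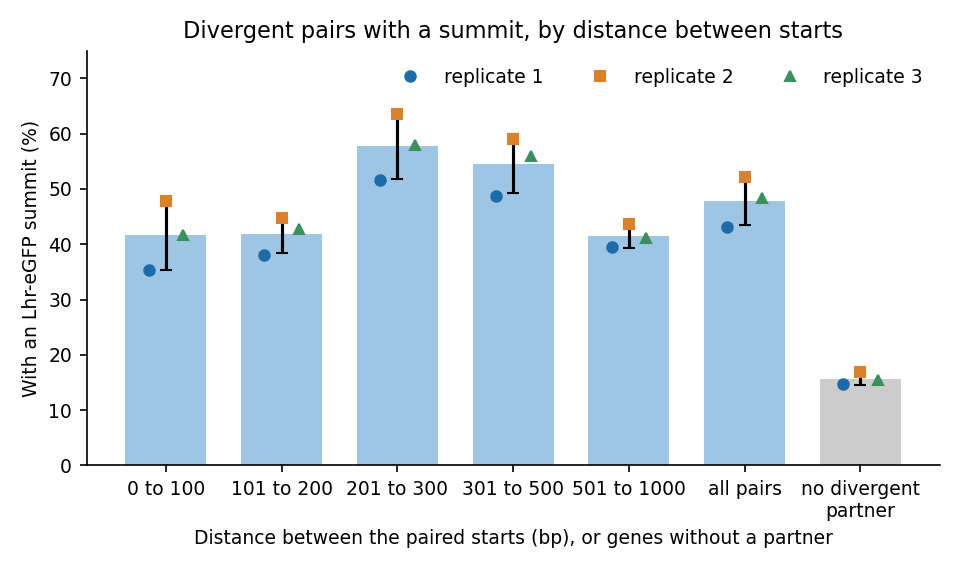
Share of divergent pairs with an Lhr-eGFP summit (vertical axis, percent) by distance between the paired starts in bp, and share of genes without a divergent partner (grey). Bars are the mean and error bars the SD of 3 libraries, shown as points. The pairs with gaps of over 200 to 300 bp reach 57.7% ± 5.92, and the genes without a partner stay at 15.7% ± 1.12.

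The kind of partner also went with the bound share. Pairs of 2 protein-coding genes had a summit in 1396 of 2620 cases (53.3%), and pairs with 1 gene that is not protein-coding in 114 of 500 (22.8%). In replicates 1, 2 and 3 the first share was 47.1%, 57.3% and 53.1%, and the second was 22.8%, 24.8% and 23.4%. Both kinds had similar spacing, with median gaps of 299.5 and 329.5 bp.

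The chromosome arms gave like values. Divergent promoter summits numbered 384 on 3R, 330 on 3L, 319 on 2R, 290 on 2L, 227 on the X, 15 on chromosome 4 and 0 on the Y. The share of genes with a partner that were bound ran from 44.2% on 2L to 56.2% on chromosome 4, where it rests on 18 of 32 genes. Chromosome 4 was also the arm with the fewest such genes, apart from Y with 1.

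Where in the shared promoter the protein peaked was examined from the summit positions. Summits lay between the paired starts, upstream of both genes, in 1347 of 1565 cases (86.1%). In replicates 1, 2 and 3 it was 85.1%, 82.9% and 86.1% (84.7% ± 1.63, SD, n = 3). Of all positions that the distance rule allows at these pairs, 27.3% lie between the starts. In 1312 cases (83.8%) the summit was within 500 bp of both starts. The share between the starts depended on the gap, with 46.2% for gaps up to 100 bp, 81.0% in gaps of over 100 to 200 bp, 91.5% in gaps of over 200 to 300 bp, 95.6% in gaps of over 300 to 500 bp and 89.0% above. In a wider gap, more of the allowed positions lie between the starts. Their share is not given here for each class, so the classes are not like for like.

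Summits gathered around the middle of gaps of over 100 to 300 bp and near a start in gaps of over 500 bp. The median distance of the summit from its nearer start was 27 bp for gaps up to 100 bp, 46 bp in gaps of over 100 to 200 bp, 81 bp in gaps of over 200 to 300 bp, 102 bp in gaps of over 300 to 500 bp and 110 bp in gaps of over 500 to 1000 bp. It thus stopped growing near 100 bp. In gaps of over 200 to 300 bp, 34.3% of the 324 summits between the starts lay in the central 20 percent of the gap and 5.86% in the outer 20 percent, 10 percent next to each start. In gaps of over 500 to 1000 bp the order turned, with 8.31% of 349 summits around the midpoint and 34.1% next to a start. The libraries gave 31.3%, 27.8% and 30.9% around the midpoint of the narrower class, and at most 11.7% in the wider one. The ranges do not overlap. In gaps up to 100 bp, 21.8% of the 78 summits between the starts lay in the central and 14.1% in the outer 20 percent, and in gaps of over 100 to 200 bp, 36.9% and 12.8% of 141.

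**Figure D2:**
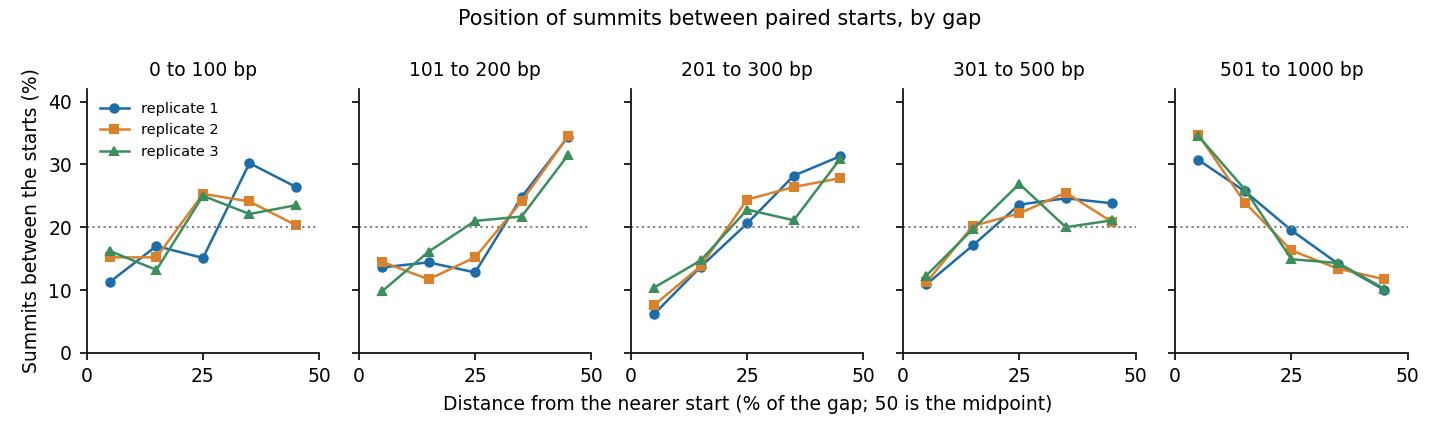
Position of summits between paired starts in 5 classes of gap. The horizontal axis is the distance from the nearer start as a percentage of the gap (50 is the midpoint), the vertical axis is the percentage of the summits between the starts, lines are the 3 libraries, and the dotted line is an even spread. In gaps of over 200 to 300 bp the central bin holds 27.8% to 31.3%, and in gaps of over 500 to 1000 bp it holds at most 11.7%.

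Wide gaps also more often held several summits. Of the 1410 pairs to which summits were assigned, 150 (10.6%) had 2 or more divergent promoter summits. The share was 2.42% of pairs with gaps up to 100 bp, 0.578% in gaps of over 100 to 200 bp, 5.04% in gaps of over 200 to 300 bp, 15.0% in gaps of over 300 to 500 bp and 14.2% in gaps of over 500 to 1000 bp. In 116 of the 150 pairs the 2 strongest summits were nearest to different genes of the pair, and their median separation was 207 bp. No neighbouring summits of the whole list lay closer than 199 bp, and 71.2% of these peaks had the fixed width of 430 bp, so a narrow gap has little room for a second summit.

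Against promoters without a partner, the summits at divergent pairs lay closer to a start. The median distance was 83, 76 and 77 bp in replicates 1, 2 and 3, against 122, 103 and 107 bp at the other promoters. The difference was -32.0 ± 6.24 bp (SD, n = 3), with p = 0.25 in the exact two-sided permutation test. A pair offers a start on each side, so this comparison is not like for like.

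The peak strength of divergent and other promoters depended on how much of each list was taken. The median percentile of signal, where 100 is the strongest peak of a list, was 56.7, 53.7 and 55.4 in replicates 1, 2 and 3, against 55.4, 53.0 and 55.5 at other promoters. The difference was 0.626 ± 0.730 (SD, n = 3, p = 0.5, exact two-sided permutation test) in the main lists, -4.44 ± 2.21 in the stronger 50 percent of each and 11.0 ± 2.34 with all relaxed peaks. With gaps up to 500 bp it was 1.81 ± 1.40, and with summits up to 1000 bp from a start 1.49 ± 1.35. Of the 1565 summits, 1050 (67.1%) had a summit within 100 bp among the strongest peaks of all 3 libraries, against 64.3% of all peaks and 68.4% of the other promoter summits. Another 363 were found in 2 libraries, 139 in 1 and 13 in 0. By library, 81.2%, 87.6% and 87.8% were found again, against 85.6%, 86.8% and 87.1% of other promoter summits. The mean difference of -0.981 ± 2.99 points (p = 1, exact permutation test) came from replicate 1, and without it the difference was 0.746. With a tolerance of 50 bp it was -3.88 ± 1.64, with 200 bp 0.565 ± 3.11, and in the stronger 50 percent of the lists -2.79 ± 0.367.

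Recovery followed strength. Of the 392 strongest divergent promoter summits, with signals from 467.0 to 2394.3, 95.2% were found in all 3 libraries, and of the 391 weakest, with signals from 173.1 to 242.8, 16.1% were. Most summits at the weak end therefore lacked a match within 100 bp among the strongest peaks of at least 1 library. Each library entered with only as many peaks as the reproducible list, so a weak summit can fall below that cut. Some of the unmatched summits had a weaker peak further down the library lists, and their share is not given here. With all relaxed peaks of each library, the difference in recovery from other promoter summits was -2.35 ± 1.68 points (SD, n = 3). The strongest had a median gap of 298.5 bp and the weakest one of 355.0 bp. Where all 3 libraries had a summit, the 3 positions spanned a median of 38 bp, and 63.0% of these 1050 spans were within 50 bp. Signal was also compared between libraries over divergent promoter summits with a match within 100 bp in the full lists of both, weaker peaks included. Spearman's rho was 0.764 for replicates 1 and 2 (n = 1350), 0.840 for 1 and 3 (n = 1366) and 0.753 for 2 and 3 (n = 1436). This is a description across peaks that share the control alignment.

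Near the limits of the membership rule nothing broke off. The 14 summits in the last 100 bp inside the distance limit had a median signal of 280.1, and the 20 summits in the first 100 bp outside it had 341.6. The 56 with gaps in the last 100 bp below the largest gap allowed had 297.0, and 34 with gaps up to 100 bp above it had 293.4.

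Sequence was compared with exact matches to 12 words on either strand within 100 bp of the summit. The share of divergent promoter windows is given beside that of other promoter summits and that of windows of the same length centred on all 18910 start positions of protein-coding genes. The M1BP word was in 10.9% of divergent promoter windows, 10.2% at other promoter summits and 4.46% of all start windows. The DRE was in 10.7%, 10.2% and 6.34%, and motif 6 in 15.8%, 16.8% and 9.29%. Motif 7 was in 8.63%, 6.46% and 4.40%, and the E-box CAGCTG in 13.6%, 12.3% and 13.6%. Only 16 windows held both the M1BP word and the DRE, while 154 held the M1BP word without a DRE and 152 a DRE without the M1BP word. None of the 5 elements was found in 808 divergent promoter windows (51.6%) and in 56.0% at other promoter summits.

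The largest differences from other bound promoters were in the TATA and BEAF-32 words and in GAGA sites. The TATA word TATAAA was in 36.0%, 36.6% and 34.9% of divergent promoter windows in replicates 1, 2 and 3, and in 28.8%, 30.5% and 29.1% of the others, a difference of 6.34 ± 0.748 percentage points (SD, n = 3). The BEAF-32 word CGATA was 4.74 ± 0.781 points more frequent, with 48.4% against 44.0% of the reproducible peaks, and motif 7 was 2.77 ± 0.257 points more frequent. Lower shares were found for the GAGA factor word GAGAG, with 14.7%, 14.2% and 15.0% against 19.7%, 19.0% and 19.8% (-4.87 ± 0.159 points). The word TGAGTG of Zeste differed by -2.38 ± 0.417 points, and AGNTGGCGC of the insulator protein CTCF, in 1.41% against 3.46% of windows, by -1.83 ± 0.0793 points.

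Each of these 6 differences had the same direction in 3 of 3 libraries, with p = 0.25 in the exact two-sided permutation test and 0.333 after Benjamini-Hochberg adjustment over the 12 words. The smaller differences of the DRE, motif 6 and the E-box also kept their direction in 3 of 3 libraries, with the same p. The A+T content also differed, at 63.8% ± 0.266 against 62.6% ± 0.269 (difference 1.13 ± 0.0328 points), and its part was not tested. The size of the differences depended on the setting. That for CGATA was -0.520 points within 50 bp of the summit, 10.7 with all relaxed peaks and 0.366 when only the outermost start of each gene counted, and it was also larger within 200 bp. That for GAGAG was -2.51 within 50 bp, -11.3 within 200 bp, -7.18 with all relaxed peaks and -2.17 with the outermost start, and that for TATAAA 3.75, 4.23, 5.20 and 6.25. Motif 7 differed by 0.437 points within 50 bp and 6.49 within 200 bp. The M1BP word, the DRE, the E-box, the Initiator word TCAGT, motif 6 and the Su(Hw) word TGCATACTT differed by at most 1.36 points. Within 200 bp the differences were 4.08 ± 0.708 for the M1BP word, 5.78 ± 0.432 for the DRE and 4.85 ± 0.357 for the E-box, and with all relaxed peaks 3.03 ± 0.261, 3.81 ± 0.485 and 1.07 ± 0.714.

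**Figure D3:**
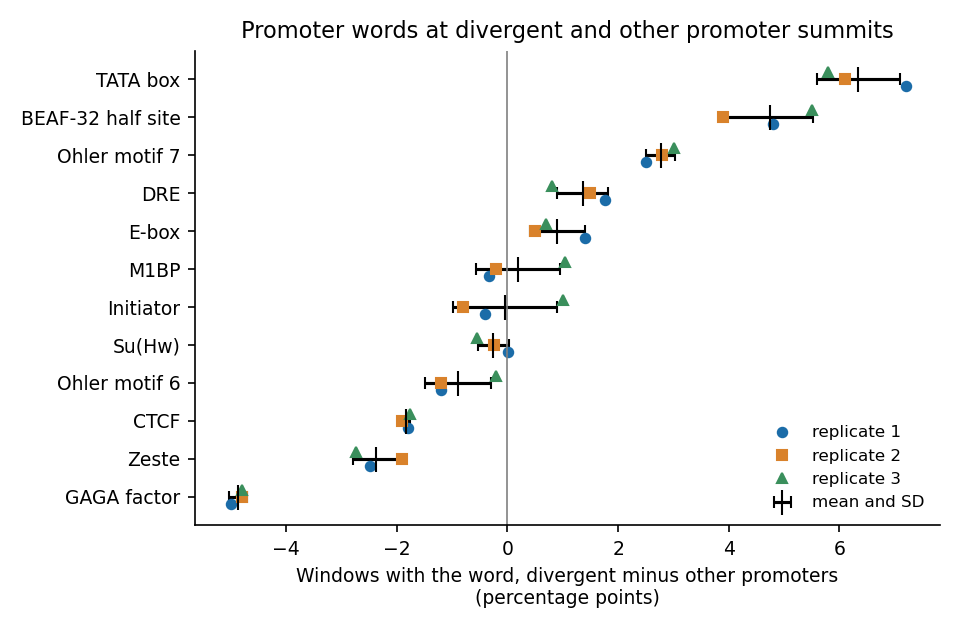
Share of summit windows with each of 12 promoter words, divergent minus other promoter summits, in percentage points. Points are the 3 libraries, vertical ticks the mean and horizontal bars the SD. The TATA box word stands at 6.34 ± 0.748 and the GAGA factor word at -4.87 ± 0.159, while M1BP and Initiator straddle 0.

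The words differed with the distance between the starts. The M1BP word was in 17.2% of windows with gaps up to 100 bp, 14.9% in gaps of over 100 to 200 bp, 10.2% in gaps of over 200 to 300 bp, 7.98% in gaps of over 300 to 500 bp and 10.5% above. The E-box went from 20.1% in the narrowest to 9.18% in the widest class. TATAAA was in 24.3%, 29.3%, 45.2%, 40.3% and 32.4% in the same order. The class with its highest share, gaps of over 200 to 300 bp, also had the highest share of bound pairs. By summits per kb of gap that class did not stand highest, and a link was not tested.

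**Figure D4:**
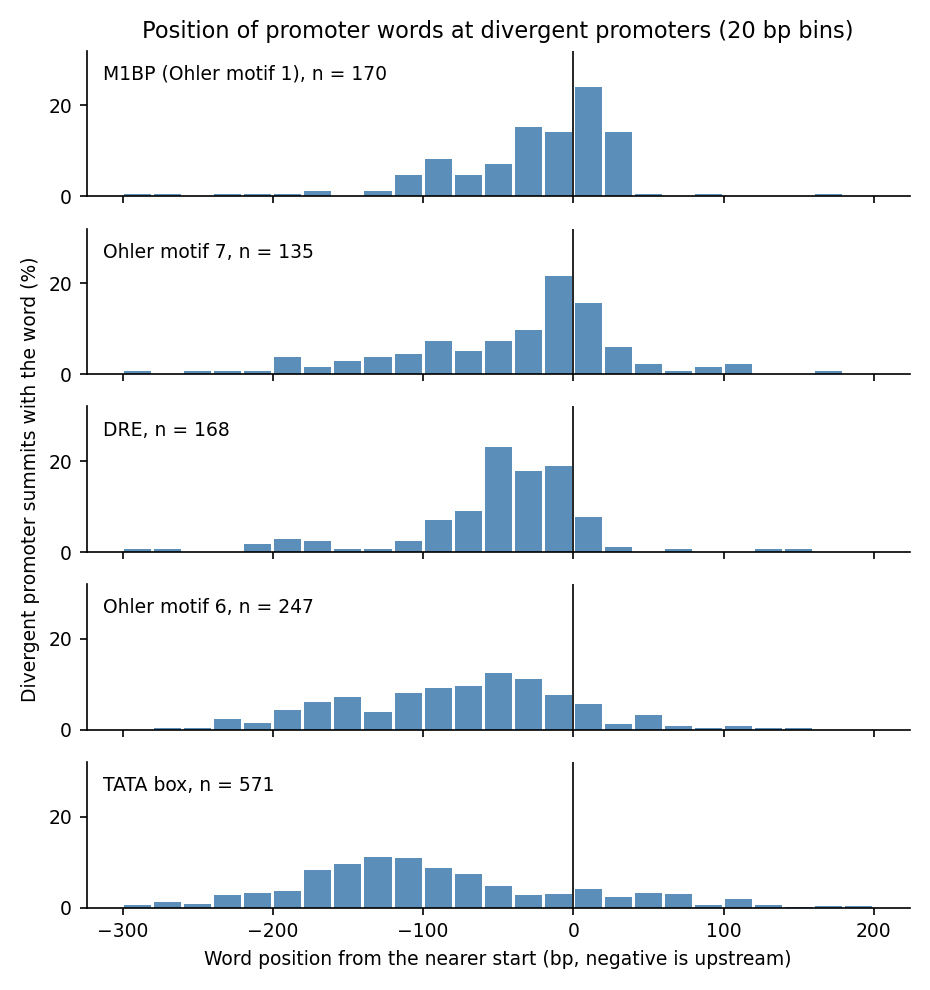
Position of 5 words relative to the nearer start at divergent promoter summits that hold them, in bins of 20 bp (horizontal axis, bp, negative is upstream; vertical axis, percent of summits with the word, n in each panel). M1BP and motif 7 gather around the start, DRE just upstream, and TATAAA far upstream with a median of -111.5 bp.

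Their places relative to the genes were also unlike. The copy nearest to the summit lay at a median of -12.0 bp from the nearer start for the M1BP word (n = 170), -19.5 bp for motif 7 (n = 135), -41.5 bp for the DRE (n = 168) and -68.5 bp for motif 6 (n = 247). For TATAAA (n = 571) it was -111.5 bp, well upstream of the place of a TATA box, and 49.0% of copies were on the strand of the nearer gene. The M1BP word was on that strand in 112 of 170 windows (65.9%), motif 7 in 96 of 135 (71.1%) and motif 6 in 159 of 247 (64.4%). In replicates 1, 2 and 3 this share was 61.3%, 63.4% and 63.3% for the M1BP word, 69.5%, 75.8% and 70.3% for motif 7, and 58.4%, 63.0% and 58.0% for motif 6. At other promoter summits it was 73.6% ± 0.776, 75.5% ± 2.02 and 65.6% ± 0.360 (SD, n = 3). CGATA was on that strand in 379 of 758 windows.

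Whether the words told bound from unbound pairs was examined in the 931 pairs with starts at most 200 bp apart, whose whole gap lies inside a window of that length on the midpoint. This comparison was added after the data were seen. The M1BP word was in 13.2%, 13.9% and 15.0% of bound and 8.47%, 7.01% and 6.69% of unbound pairs in replicates 1, 2 and 3. Motif 6 was in 19.1%, 16.0% and 17.8% of bound and 8.47%, 9.22% and 8.36% of unbound pairs, and motif 7 in 12.4% ± 1.13 and 7.92% ± 1.21 (SD, n = 3). The library values of bound and unbound pairs did not overlap for these 3 words. Nor did they for the CTCF and Su(Hw) words, or, lower in bound pairs, for the DRE, the E-box and TATAAA. The CTCF word was in only 0.759% ± 0.170 of bound and 0.360% ± 0.154 of unbound pairs. The Su(Hw) word was in 0.422% ± 0.114 and 0.0565% ± 0.0979, so both rest on very few pairs. For the E-box the highest bound value was 24.1% and the lowest unbound value 24.2%, both in replicate 2. The DRE was in 15.6% ± 1.16 of bound and 17.7% ± 0.636 of unbound pairs, and CGATA in 59.4% ± 2.10 and 58.1% ± 1.57. TATAAA was less frequent in bound pairs in all 3 libraries, with 22.2% ± 1.45 against 33.6% ± 0.312. For these words p was 0.25 in the exact two-sided permutation test and 0.375 after adjustment over the 12 words, except for CGATA, where p was 0.75 before adjustment.

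Over all 3120 pairs, those with the word around the midpoint were bound in 66.4% of cases for the M1BP word (81 of 122), 61.8% for motif 7 (94 of 152), 59.6% for motif 6 (236 of 396) and 47.8% for the DRE (117 of 245). Every pair counted, 48.4% were bound, so the pairs with a DRE stood at the level of all pairs. In the libraries the share of pairs with the M1BP word was 55.7%, 68.9% and 68.0%. TATAAA, less frequent in bound pairs of narrow spacing, was more frequent over all pairs, with 41.2% ± 0.422 of bound and 37.8% ± 0.681 of unbound midpoints (3.42 ± 1.10 points).

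The genes at these promoters were grouped by 13 lists of known function, each read against the 48.0% of all genes with a divergent partner that were bound. Genes of the cytoplasmic ribosome stood highest. Of 55 with a partner, 51 (92.7%) were bound, with 47, 52 and 52 in replicates 1, 2 and 3, and 22 of 26 without a partner were bound, beside 15.8% of all genes without one. RpL7 with Ripalpha had the strongest summit (rank 76), followed by RpL13A with Spec2 (rank 140) and RpS27 with the nucleoporin gene Nup37 (rank 144). The shares with and without a partner were 92.7% and 84.6%, and their difference was not tested.

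Genes of the mitochondrial ribosome were mostly in divergent pairs. Of 74, 59 (79.7%) had a divergent partner, against 39.9% of all protein-coding genes. Of those, 34 (57.6%) were bound, with 31, 36 and 35 in the libraries, and of the 15 without a partner 2 (13.3%) were, beside 15.8% of all genes without a partner. mRpS10, mRpL41 and mRpS23, the last with CenG1A (rank 62), had the strongest summits. Proteasome subunits were bound in 16 of 26 cases with a partner (61.5%) and 6 of 22 without (27.3%), led by Rpn6 with ave (rank 656), Prosbeta3 with Iru (rank 725) and Rpn13 with CtsL1 (rank 765).

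Genes of transcription, splicing and the cell cycle also lay above the level of all genes with a partner. The RNA polymerase II machinery had 27 of 39 (69.2%), led by the Mediator subunit gene MED27 with elm (rank 435), TfIIA-L with pll (rank 618) and MED4 (rank 806). The spliceosome had 19 of 29 (65.5%), but with 13, 23 and 19 in the libraries. The summit at Sf3b6 and the importin gene Tnpo had no match among the strongest peaks of replicate 1. DNA replication and cell cycle genes had 19 of 26 (73.1%), led by the mitotic cyclin gene CycB with stl (rank 138), Dp with Fsn (rank 709) and the replication licensing gene dup with SRPK (rank 1187). DNA repair genes had 18 of 27 (66.7%), led by the checkpoint kinase gene tefu with the chaperone gene Hsc70-4 (rank 279), phr6-4 with CG2608 (rank 1226) and Rev1 with MED30 (rank 1229). Centromere and kinetochore genes had 10 of 16 (62.5%), the same share as the 5 of 8 without a partner, led by Nnf1a with HnRNP-K (rank 497), Mad1 with Drep2 (rank 747) and Spc25 with grsm (rank 2089).

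**Figure D5:**
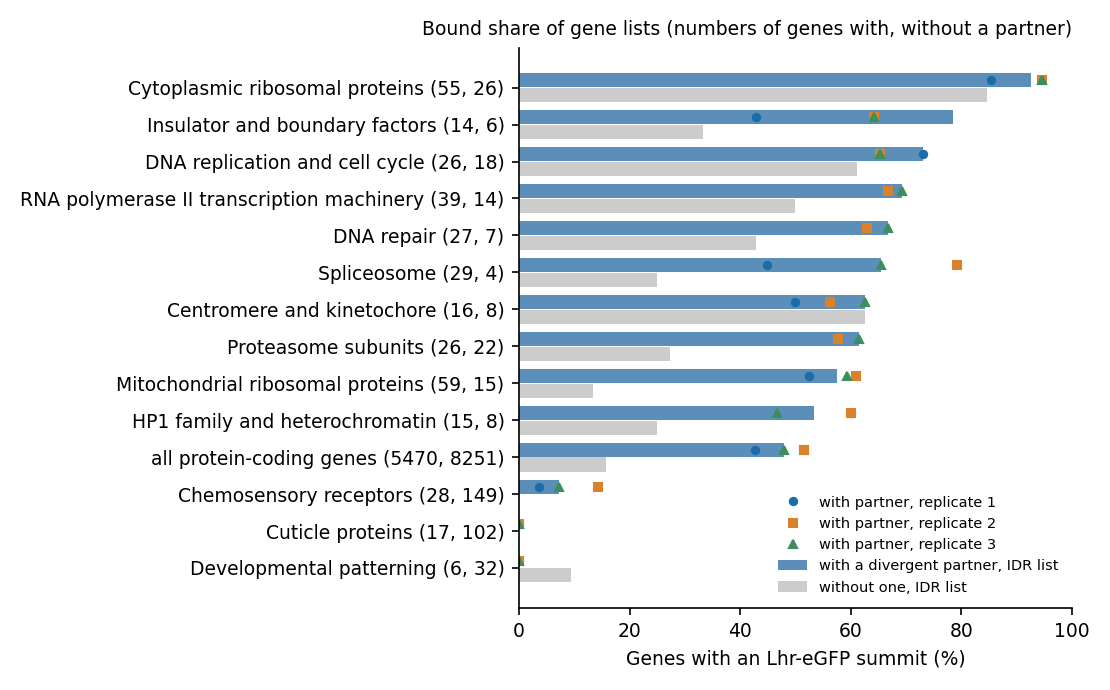
Share of genes with an Lhr-eGFP summit (horizontal axis, percent) for 13 gene lists and all protein-coding genes. Blue bars are genes with a divergent partner and grey bars genes without one in the reproducible list, points are the 3 libraries for genes with a partner, and the numbers of genes are in brackets. Cytoplasmic ribosomal proteins reach 92.7% with and 84.6% without a partner, mitochondrial ones 57.6% and 13.3%.

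Chromatin genes were close to that level or rested on few genes. Insulator and boundary factors had 11 of 14 (78.6%) in the reproducible list, but 6, 9 and 9 in the libraries, led by Chro, the boundary protein gene Cp190 with CG4338 (rank 464) and the nucleoporin gene Nup98-96 with mbc (rank 675). Genes of the HP1 family and heterochromatin had 8 of 15 (53.3%), led by the histone methyltransferase gene G9a with CG3038 (rank 394), Su(var)3-7 with Ravus (rank 1441) and ADD1 with PI31 (rank 1720).

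Genes of regulated or tissue-specific function were rarely in divergent pairs and rarely bound there. Of 38 developmental patterning genes, 6 had a partner and 0 were bound, in the libraries too. Of 119 cuticle protein genes, 17 had a partner and 0 were bound. Of 177 chemosensory receptor genes, 28 had a partner and 2 were bound in the reproducible list, with 1, 4 and 2 in the libraries. The strongest summit at a pair with a receptor gene, that of Or67b and the cyclophilin gene Cyp40, lay 8 bp from Cyp40 and 876 bp from Or67b. This is beyond the 500 bp limit, so the summit did not count for that start of Or67b. Of all 3120 pairs, 18 had both genes in a list and 7 of these had a summit, and 10 had both in the same list, of which 1 had a summit. The lists cover a small part of all genes.

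The genes of Lhr itself and of its best known partners were looked up in any case. Lhr starts 69 bp from Bap55, a subunit of the Brahma complex, and this pair had a summit between the starts, 23 bp from Bap55 and 46 bp from Lhr, at rank 4100 (ranks 4491, 3273 and 4548 in the libraries). The transgene carries Lhr sequence of an extent not given in the sources used here, and its part in this peak was not tested. BEAF-32, paired with an antisense RNA gene, had a summit at rank 3479. Hmr starts 267 bp from CG2124 and had its nearest summit 13597 bp away. The gene of HP1a itself starts 225 bp from Ssb-c31a and had its nearest summit 1864 bp away.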

How the data were processed

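The authors deposited peak lists in narrowPeak format for each of 3 libraries, for the combined experiment and after a threshold on the irreproducible discovery rate (IDR), which measures how alike peaks rank in replicates. Per the listings deposited with each library, every library was called with 1 control alignment that all 3 share. Which aligner, caller and IDR threshold were used is not given in the sources used here. The deposited signal of a peak is the authors' enrichment value and orders peaks inside 1 list only. The deposited −log10 q-value has many ties and was not used for ranking. The IDR list (5190 peaks on dm6) equals the 5190 strongest peaks of the combined list, so the same number was taken from each library, whose full lists hold 22598, 30000 and 18934 peaks. Lists on the older assembly dm3 were not used.

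Start sites were the transcript 5′ ends of Ensembl release 115, without transposable elements, on Release 6, the assembly of dm6. A start was divergent when the nearest opposite-strand start of another gene lay 0 to 1000 bp upstream, and a summit was assigned to the nearest such protein-coding start within 500 bp. Pericentric sequence was taken as the ends beyond 22 Mb (2L, X) and 23 Mb (3L) and the first 5.4 Mb (2R) and 4.6 Mb (3R). The text names the 12 strongest divergent promoter summits, the 3 strongest of each of 13 gene lists and Lhr, Hmr, Su(var)205, BEAF-32 and Chro in any case. Members, lists, words and borders were chosen with earlier results of these data known. Sequences were read from the Release 6 RefSeq genome. Library values were compared by exact two-sided sign-flip permutation tests. Python 3.11.15, numpy 2.4.6, pandas 2.3.3 and matplotlib 3.10.9 were used, and the assignment of summits and the word search were tested on simulated data. Alternatives were other distances, gaps, partner types, list lengths and word windows, pericentric summits kept, each library left out, and, chosen after seeing the data, only the outermost start of each gene.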

Additional observations from a re-analysis of the deposited data

How the results depend on the processing

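Of 202 recomputed values, 179 kept their direction, 57 of them moving by more than the SD of the main value over libraries, and 23 changed sign. The share between the starts and the distance from the midpoint cannot change sign, and their values are among those counted as kept. The difference in bound share between genes with and without a divergent partner was 31.7 points, 30.2 to 33.5 without 1 library, 18.9 in the stronger 50 percent of each list, 24.9 with summits within 200 bp of a start and 33.4 within 1000 bp, and kept its sign in every alternative run. Every comparison was made within a library, and with 3 libraries of 1 group no p below 0.25 can be had. The share of summits between the starts, 84.7%, was 82.0% with gaps up to 500 bp, 87.1% in the stronger 50 percent of each list, 72.9% with all relaxed peaks and 80.9% with the outermost start of each gene only, a setting chosen after seeing the data. It was 84.0% to 85.6% without 1 library. The distance from the midpoint, 78.3 bp, was 58.5, 68.8, 110.1 and 82.7 bp in these settings, 75.5 bp with protein-coding partners only, and 77.5 to 79.0 bp without 1 library. The difference in signal percentile, 0.626, turned to -4.44 in the stronger 50 percent and -0.511 with the outermost start, and was 11.0 with all relaxed peaks. The difference in distance to a start, -32.0 bp, was -70.7 bp with all relaxed peaks and -21.0 bp with the outermost start. That in recovery turned to 0.565 with a tolerance of 200 bp, but was -3.88 with 50 bp and -2.79 in the stronger 50 percent. It ran from -1.86 to 0.746 without 1 library. For words, the M1BP difference turned to -1.32 in the stronger 50 percent, -1.39 within 50 bp and -1.14 with the outermost start, and ran from -0.243 to 0.461 without 1 library. The DRE turned to -0.00935 within 50 bp and -0.0785 with the outermost start, CGATA to -0.520 within 50 bp (but larger than the main value within 200 bp), and motif 6 to 0.482 with gaps up to 500 bp and 2.02 with all relaxed peaks. The E-box turned to -0.0231, -0.679 and -0.0618 in the stronger 50 percent, within 50 bp and with the outermost start. The Initiator, at -0.0453, turned to 0.327 with protein-coding partners, 0.339 in the stronger 50 percent, 0.510 within 50 bp, 0.104 within 200 bp and 0.465 with the outermost start, and ran from -0.579 to 0.307 without 1 library. The cause of these changes was not tested. With the read depth unknown, how many weaker pairs were missed cannot be given, and the relaxed lists differ in length.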
